A study of Mus musculus with 12 samples.

Results

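The 7 genes described here encode surface molecules to which β2 integrins and related adhesion receptors bind, or with which they cooperate: Icam1, Icam2, Jam3, F11r, Vcam1, Selplg and Cd44. They were chosen by name from the 41709 genes of the tables. The rule used no measured value, but earlier results of these data were known when it was set. Their transcripts were counted in 12 poly(A) RNA-seq libraries of mouse bone marrow-derived dendritic cells (BMDCs), grown with GM-CSF for 10 days and enriched for MHCII+ cells on magnetic beads. All donors were homozygous for a floxed Itgb2 (CD18) gene. Controls (CD18fl/fl) had no Cre, and in CD18CD11c cKO cells a Cre under the CD11c promoter removed exon 3 of Itgb2, so that only cells in which that promoter had been active lost it. Each genotype was left unstimulated or received 100 ng/mL LPS for 24 h, with 3 libraries per group, numbered 1 to 3.

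β2 integrins pair the CD18 chain with a CD11 chain. LFA-1 (CD11a/CD18) on one leukocyte binds ICAM-1 and ICAM-2 on another cell, and junctional adhesion molecules serve as further partners: JAM-A (F11r) for LFA-1 and JAM-C (Jam3) for MAC-1 (CD11b/CD18). VCAM-1 is bound by the α4 integrins, PSGL-1 (Selplg) by selectins, and CD44 by hyaluronan. Dendritic cells use these molecules to roll and arrest on endothelium, to move through tissue and to hold T cells at the contact where antigen is shown.

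The libraries held 29689149 to 34037178 total gene reads, and 3 reads, taken as the detection floor, corresponded to 0.0881 to 0.101 CPM (counts scaled to a library of fixed size). All CPM values below are total gene reads scaled by TMM, a normalization that centres most genes on no change. Libraries numbered 3 stood apart from those numbered 1 and 2 in every group. Same-numbered libraries deviated together (correlation of their deviations from the group means 0.265 to 0.716 over 12 pairs). Libraries 1 and 2 also correlated across numbers (0.154 to 0.334), so the numbering mainly set libraries 3 apart from the others. Correlations of libraries 3 with both were negative (-0.571 to -0.321). Deviations from a group mean cancel out within the group, so this sign follows from the centring and is no separate observation. Each comparison was fitted once ignoring the replicate number and once with it as a blocking factor (the block). All 12 listed markers of MHCII+ BMDCs were above the floor in every library. Summed B cell markers reached 138 CPM in unstimulated libraries 1 and 2 but at most 1.02 CPM in unstimulated libraries 3. The BMDC markers differed in both directions between these libraries. Flt3, the receptor of a dendritic cell growth factor, was at 10.4 to 35.5 CPM against 0.347 and 2.25 CPM in libraries 3. Batf3 was at 46.4 to 71.2 CPM against 12.3 and 23.9 CPM. In contrast, Itgax (CD11c) was at 142 to 210 CPM against 453 and 680 CPM, and Irf4 at 21.1 to 41.1 CPM against 63.4 and 58.4 CPM. Transcripts of the targeted gene Itgb2 were at 382, 420.2 and 379 CPM in unstimulated CD18fl/fl cells and at 120.5, 163 and 189 CPM in CD18CD11c cKO cells. After LPS they were at 167, 171 and 267 CPM against 114, 89.7 and 119 CPM. Removal of exon 3 need not remove the other exons' reads, and in a bulk library fewer cells of a type cannot be told apart from less RNA per cell.

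The proximal promoters are shown for the genes with an entry in the RefSeq table (GRCm38.p6), since the stimulus, LPS, acts through factors with known recognition letters. Entries were found for 3 of the 7 members; Icam2, Jam3, Vcam1 and Selplg had none. Each sequence runs from 250 bases before to 50 after the annotated start, 5′ to 3′ on the gene's own strand. Capitals mark matches on either strand to an NF-κB-type motif (GGNNNTTCC or GGAANNNCC), an AP-1-type motif (TGANTCA), a PU.1-type motif (GAGGAA or TTCCTC) and a TATA box (TATAAA, on the gene's strand only).
Icam1, chr9:21015690-21015989, plus strand: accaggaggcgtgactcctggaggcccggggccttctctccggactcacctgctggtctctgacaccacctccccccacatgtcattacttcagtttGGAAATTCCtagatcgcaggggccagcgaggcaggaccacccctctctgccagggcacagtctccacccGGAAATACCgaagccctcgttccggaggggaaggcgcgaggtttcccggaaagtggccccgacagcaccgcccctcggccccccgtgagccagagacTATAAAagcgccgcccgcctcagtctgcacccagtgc
F11r, chr1:171437311-171437610, plus strand: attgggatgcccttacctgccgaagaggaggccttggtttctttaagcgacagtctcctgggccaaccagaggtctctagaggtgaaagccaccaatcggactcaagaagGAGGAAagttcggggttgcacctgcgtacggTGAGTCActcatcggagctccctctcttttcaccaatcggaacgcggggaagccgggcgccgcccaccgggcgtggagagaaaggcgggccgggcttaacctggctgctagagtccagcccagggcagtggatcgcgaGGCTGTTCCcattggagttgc
Cd44, chr2:102901616-102901915, minus strand: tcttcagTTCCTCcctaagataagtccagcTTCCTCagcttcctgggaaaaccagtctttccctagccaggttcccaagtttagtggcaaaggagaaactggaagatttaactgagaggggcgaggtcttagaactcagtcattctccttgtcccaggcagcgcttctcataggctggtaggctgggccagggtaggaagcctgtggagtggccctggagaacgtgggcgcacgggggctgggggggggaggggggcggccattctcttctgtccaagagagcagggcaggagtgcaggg
The Icam1 window held 2 NF-κB-type matches, beginning 153 and 84 bases before the start. Its 1 TATA box match began 13 bases after the annotated start, not before it. F11r held 1 match each to the NF-κB-type (29 bases after the start), AP-1-type (109 before) and PU.1-type motifs (140 before). Cd44 held 2 PU.1-type matches only, 243 and 220 bases before the start. Of 32851 promoters of this length, 18.5% held an NF-κB-type match, 7.81% an AP-1-type, 28.3% a PU.1-type and 8.32% a TATA box match. These matches describe the letters only.

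Per unit of transcript length, the members spanned a wide range, and PSGL-1 was the leading transcript in 3 of the 4 groups. On the deposited RPKM scale (reads scaled by exon length and library size), unstimulated CD18fl/fl cells held Selplg at 198 ± 43.2 (SD, n = 3), Icam1 at 99.1 ± 23.4, Cd44 at 37.3 ± 6.23 and F11r at 15.2 ± 4.56. Icam2 followed at 2.17 ± 0.690 and Vcam1 at 1.85 ± 1.52, and these neighbours overlapped between libraries, whereas the others did not. Unstimulated CD18CD11c cKO cells showed the same order, with Selplg at 94.1 ± 5.70, Icam1 at 71.8 ± 18.1, Cd44 at 20.2 ± 4.21 and F11r at 12.6 ± 7.66, but there Cd44 and F11r overlapped. With LPS, F11r stood above Cd44 in both genotypes. The levels were 30.6 ± 16.1 against 11.2 ± 5.21 RPKM in CD18fl/fl cells, where the libraries overlapped, and 24.7 ± 14.1 against 7.37 ± 0.868 RPKM in CD18CD11c cKO cells, where they did not. Selplg and Icam1 overlapped in both LPS groups, and in CD18CD11c cKO cells the mean of Icam1 (65.5 ± 12.4 RPKM) was above that of Selplg (52.9 ± 2.94 RPKM). Jam3 had the lowest mean in each group, but in unstimulated CD18CD11c cKO library 3 it was above Vcam1 (0.190 against 0.0603 RPKM).

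Icam1 (ENSMUSG00000037405, chr9:20927281-20940113 of GRCm39) encodes the main ligand of LFA-1. In unstimulated CD18fl/fl libraries 1 to 3 it was at 234, 239.9 and 149 CPM, and in CD18CD11c cKO libraries at 242, 206 and 127 CPM. With LPS it was at 192, 146 and 340.3 CPM in CD18fl/fl cells and at 209.8, 187 and 218 CPM in CD18CD11c cKO cells. Libraries 3 were the lowest of each group without LPS and the highest of each group with it, and all groups overlapped. The fitted differences were correspondingly small and imprecise: -0.07 (log2, SE 0.32) for CD18CD11c cKO against CD18fl/fl cells without LPS and -0.17 (SE 0.35) with LPS. LPS gave a log2 difference of 0.13 (SE 0.38) in CD18fl/fl and of 0.05 (SE 0.29) in CD18CD11c cKO cells. Within same-numbered CD18fl/fl libraries the log2 ratio of LPS to no stimulus was -0.29, -0.71 and 1.19. With libraries 1 and 2 alone it was fitted at -0.49 (SE 0.18, edgeR adjusted p = 0.0373), a direction opposite to that of all 3, in a fit that called 47.5% of all genes.

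Icam2 (ENSMUSG00000001029, chr11:106268482-106278901) encodes a second LFA-1 ligand that is best known from endothelium and platelets. It was rare, with 13 to 132 reads per library. Unstimulated libraries held 3.58, 2.73 and 1.76 CPM in CD18fl/fl cells and 2.06, 4.07 and 3.82 CPM in CD18CD11c cKO cells, whereas LPS libraries held 1.8, 0.707 and 1.73 CPM and 1.9, 0.584 and 2.49 CPM. The LPS libraries were lower within each of the 6 same-numbered pairs, but the groups overlapped. The log2 difference with LPS was -0.92 (SE 0.56) in CD18fl/fl and -1.03 (SE 0.67) in CD18CD11c cKO cells, neither past the threshold of an adjusted p of 0.05. Endothelial markers, of which 1 of 8 was above the floor in all 12 libraries, summed to 3.24 to 21.1 CPM without and 16.6 to 79.4 CPM with LPS, most of it from Kdr (VEGF receptor 2); their part in the Icam2 values was not tested.

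F11r (ENSMUSG00000038235, chr1:171265103-171292171) encodes JAM-A, a tight junction protein of epithelium and endothelium that is also present on leukocytes. Its unstimulated levels were 39.6, 34.2 and 21.2 CPM in CD18fl/fl cells and 49.0, 42.7 and 10.1 CPM in CD18CD11c cKO cells. With LPS they were 108, 112 and 27.0 CPM in CD18fl/fl cells and 114, 102 and 23.7 CPM in CD18CD11c cKO cells. Each LPS library was higher than its same-numbered partner, yet libraries 3 lay so far below the others that their LPS level was under the unstimulated level of libraries 1 and 2. The log2 ratio within pairs was 1.44, 1.71 and 0.35 in CD18fl/fl and 1.22, 1.26 and 1.24 in CD18CD11c cKO cells. Without the block the difference was 1.38 (SE 0.54, edgeR adjusted p = 0.186) and 1.17 (SE 0.70, adjusted p = 0.389), respectively. With the block F11r rose with LPS in CD18CD11c cKO cells by 1.19 (SE 0.17, adjusted p = 0.00527). The value in CD18fl/fl cells was of the same size, 1.18 (SE 0.31, adjusted p = 0.0591). It passed the test with libraries 1 and 2 alone (1.57, SE 0.16, adjusted p = 1.5e-05), in a fit that called 47.5% of all genes. It also passed without CD18fl/fl LPS library 3, where 3268 of 13206 genes were called. Genotype made no detectable difference to F11r, at 0.15 (SE 0.57) without and -0.07 (SE 0.69) with LPS; with the block the former was -0.08.

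Jam3 (ENSMUSG00000031990, chr9:27008680-27066717), which encodes the MAC-1 ligand JAM-C, was at or below the floor of 3 reads in 11 of the 12 libraries. The exception was unstimulated CD18CD11c cKO library 3 with 23 reads, of which 11 lay in introns and 14 were unique to the gene. It did not pass the filter on low counts and was therefore not tested, so that 6 of the 7 members entered each comparison.

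Vcam1 (ENSMUSG00000027962, chr3:115903598-115923337) encodes the ligand of the α4β1 integrin, by which leukocytes arrest on inflamed endothelium. It was at 11.1, 12 and 0.454 CPM in unstimulated CD18fl/fl cells and at 12.2, 9.47 and 0.289 CPM in unstimulated CD18CD11c cKO cells. With LPS it was at 7.35, 9.74 and 2.01 CPM and at 7.13, 7.86 and 2.27 CPM. The 4 libraries numbered 3 were below all of the others. Within pairs, Vcam1 was lower with LPS in libraries 1 and 2 of both genotypes and higher in libraries 3 (log2 ratio 2.14 and 2.97), and the sign of the fitted LPS difference turned from -0.31 to 0.27 in CD18fl/fl and from -0.41 to 0.315 in CD18CD11c cKO cells when the block was added. None of these values passed the test. Libraries 3 also had more Lepr (15.5 to 73.7 CPM against 1.39 to 3.76 CPM), the only 1 of 8 listed stromal markers above the floor in all 12 libraries. Dcn, another of these markers, did not follow Lepr. With LPS it was at 3.89, 11.5 and 0.661 CPM in CD18fl/fl and at 0.770, 5.57 and 1.10 CPM in CD18CD11c cKO cells. Ms4a1, a B cell marker, was lower in libraries 3 (at most 0.321 CPM against at least 3.05 CPM). The part of stromal or B cells in the Vcam1 values was not tested.

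Selplg (ENSMUSG00000048163, chr5:113956597-113970705) encodes PSGL-1, the protein on which leukocytes carry the glycans bound by P-, E- and L-selectin. It was at 336, 405 and 262 CPM in unstimulated CD18fl/fl cells and at 223, 208 and 173 CPM in CD18CD11c cKO cells. With LPS it was at 219, 209.6 and 163 CPM in CD18fl/fl cells and at 142, 140.1 and 125 CPM in CD18CD11c cKO cells. Every CD18CD11c cKO library was below every CD18fl/fl library in both conditions, and every LPS library was below every unstimulated library of its genotype. Such a separation was seen for 24.8% of tested genes in the genotype comparison without LPS, for 17.6% with LPS, and for 29.5% and 28.1% in the LPS comparisons of CD18fl/fl and CD18CD11c cKO cells. The exact permutation test of 3 against 3 libraries gave p = 0.1 for each, the smallest it allows.

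Without LPS, the genotype difference of Selplg was -0.68 (SE 0.24, edgeR adjusted p = 0.233), in a fit that called 0% of 12876 genes, Itgb2 included (adjusted p = 0.0887), although 2159 genes had an unadjusted p under 0.05 and DESeq2 called 538. With the block, Selplg was lower in CD18CD11c cKO cells by a log2 difference of -0.66 (SE 0.14, adjusted p = 0.0199). That fit called 8.16% of genes lower and 12.1% higher. With libraries 1 and 2 alone the value was -0.73 (SE 0.18, adjusted p = 0.0481), and that fit called 10.6% of genes. After LPS the difference was -0.56 (SE 0.23, adjusted p = 0.499) without and -0.55 (SE 0.14, adjusted p = 0.0510) with the block. Neutrophil and granulocyte precursor markers summed to 1321, 112 and 8.82 CPM in unstimulated CD18fl/fl libraries 1 to 3 and to 194, 157 and 10.6 CPM in CD18CD11c cKO libraries. Their part in the Selplg difference was not tested.

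LPS was accompanied by a Selplg difference of -0.76 (SE 0.27, adjusted p = 0.157) in CD18fl/fl cells and of -0.62 (SE 0.22, adjusted p = 0.160) in CD18CD11c cKO cells without the block. With it, Selplg fell in CD18CD11c cKO cells (-0.61, SE 0.17, adjusted p = 0.0470), and the value in CD18fl/fl cells was -0.75 (SE 0.21, adjusted p = 0.0682). The former missed the threshold when gene length was also corrected for (-0.53, adjusted p = 0.0721). Macrophage markers summed to 1609 to 2307 CPM without and 506 to 1304 CPM with LPS, and their part in this difference was not tested.

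**Figure D1:**
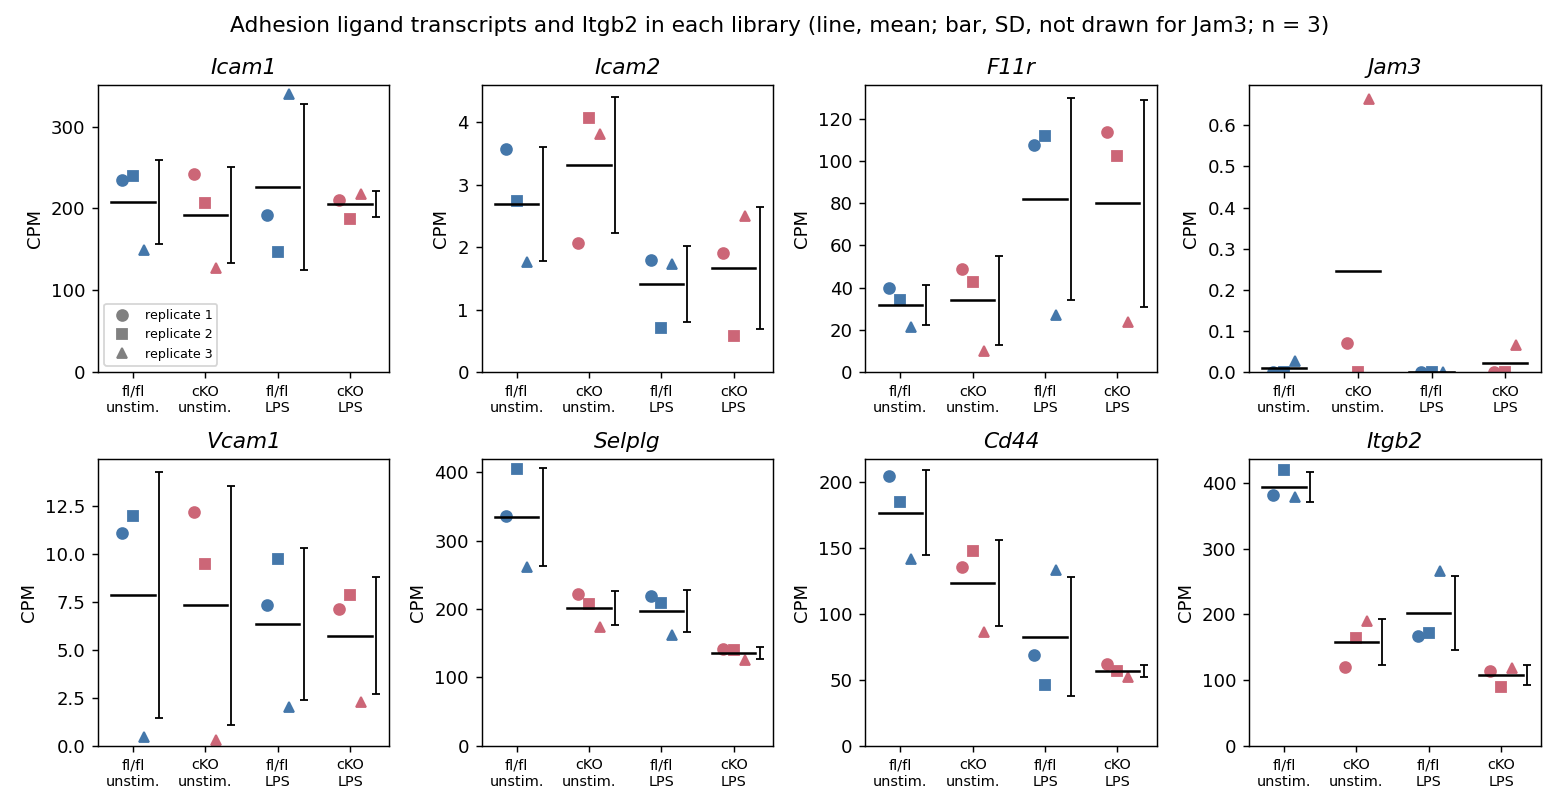
CPM (TMM-scaled, vertical axis) of the 7 genes and of Itgb2 in the 4 groups (horizontal axis); symbols show libraries 1 to 3, lines the mean and bars the SD (n = 3, not drawn for Jam3). Selplg was separated between genotypes and between conditions, whereas libraries 3 (triangles) lay apart for F11r, with 27.0 and 23.7 CPM after LPS, and for Vcam1.

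Cd44 (ENSMUSG00000005087, chr2:102641486-102732010) encodes the hyaluronan receptor, which takes part in the rolling and migration of leukocytes. It was at 204, 185 and 141 CPM in unstimulated CD18fl/fl cells and at 135, 148 and 86.5 CPM in unstimulated CD18CD11c cKO cells. With LPS it was at 68.7, 46.1 and 133 CPM in CD18fl/fl cells and at 61.6, 56.3 and 52.1 CPM in CD18CD11c cKO cells. The LPS libraries were below all unstimulated ones of their genotype, narrowly so in CD18fl/fl cells because of library 3. Of all tested genes, 29.5% in CD18fl/fl and 28.1% in CD18CD11c cKO cells were separated in this way, in either direction. In CD18CD11c cKO cells the LPS difference was -1.17 (SE 0.27, edgeR adjusted p = 0.0589) without the block, and Cd44 fell by 1.13 (log2, SE 0.21, adjusted p = 0.0118) with it. In CD18fl/fl cells the difference was -1.09 (SE 0.42, adjusted p = 0.177) without and -1.23 (SE 0.41, adjusted p = 0.0987) with the block. With libraries 1 and 2 alone it was -1.76 (SE 0.20, adjusted p = 3e-05), in a fit that called 47.5% of all genes.

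The value of CD18fl/fl LPS library 3 rested partly on introns. Of its 5232 Cd44 reads, 1954 (37.3%) lay in introns, against 6.84% to 13.6% in the other LPS libraries and 2.55% to 5.41% in the unstimulated ones. On the RPKM scale, which counts exon reads only, Cd44 was at 42.1, 39.6 and 30.2 in unstimulated CD18fl/fl cells and at 10.4, 6.42 and 16.7 after LPS, lower in each pair. A fit on exon reads with the block gave -1.49 (SE 0.33, adjusted p = 0.0373) in CD18fl/fl cells, so that Cd44 fell there too on this count, which called 13.4% of genes. Between genotypes, Cd44 was lower in unstimulated CD18CD11c cKO cells with the block (-0.48, SE 0.14, adjusted p = 0.0470; -0.47, SE 0.28, adjusted p = 0.432 without it). This call was lost when gene length was corrected for (-0.22, adjusted p = 0.380) and with libraries 1 and 2 alone (-0.40, adjusted p = 0.157). With LPS the genotype difference was -0.58 (SE 0.40, adjusted p = 0.702).

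**Figure D2:**
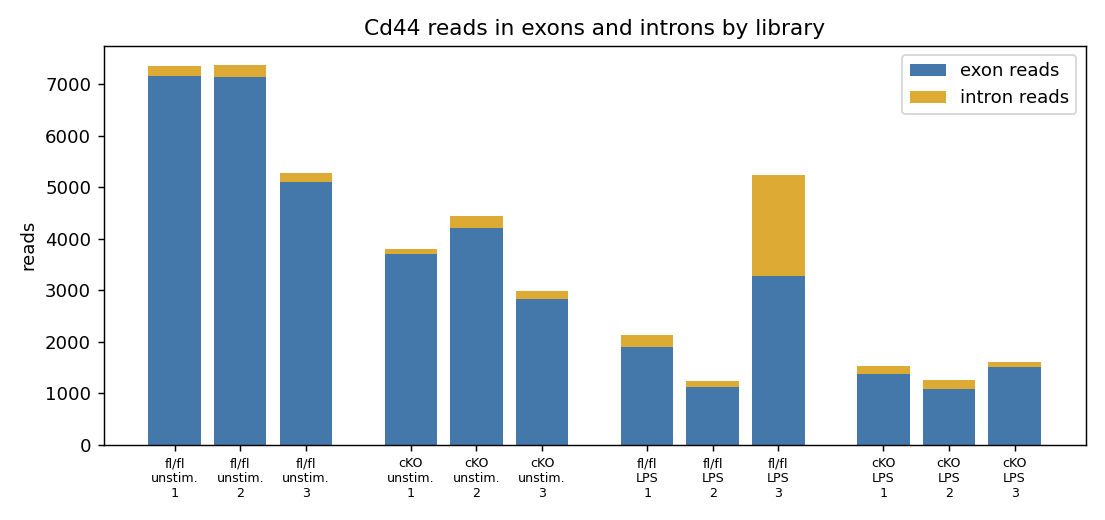
Cd44 reads (vertical axis, stacked) in exons (blue) and introns (yellow) of each library (horizontal axis, by group and replicate number). The CD18fl/fl LPS library 3 held 1954 intron reads, 37.3% of its Cd44 reads.

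Counted over all members, 0 of the 6 tested passed without the block in any of the 4 pairwise comparisons, where edgeR called 0% of all genes between unstimulated genotypes, 0% between LPS-treated genotypes, 3.89% with LPS in CD18fl/fl and 3.99% in CD18CD11c cKO cells. An unadjusted p under 0.05 was reached by 1 member in each genotype comparison, by 3 with LPS in CD18fl/fl and by 2 in CD18CD11c cKO cells. Over all genes it was reached by 2159 of 12876 between genotypes without LPS and by 1212 of 12441 with LPS. For the LPS comparisons these counts were 3034 of 12744 in CD18fl/fl and 2685 of 12687 in CD18CD11c cKO cells. DESeq2 without the block called 1 member (Cd44, with LPS in CD18CD11c cKO cells, where it called 10.7% of genes). With the block, 2 members were lower between unstimulated genotypes (Selplg and Cd44), beside 8.16% of all genes called lower and 12.1% higher. None passed between LPS-treated genotypes, where 6.98% of all genes were called higher and 3.16% lower; libraries 1 and 2 alone called 4.22% of genes there and no member, and DESeq2 with the block called 17.1% and Selplg. The fit without the block had 1212 genes at an unadjusted p under 0.05 there, and DESeq2 without it called 150. None passed with LPS in CD18fl/fl cells, where 6.33% were called higher and 6.43% lower, whereas DESeq2 with the block called F11r, Selplg and Cd44 beside 22.7% of all genes. In CD18CD11c cKO cells with LPS, 1 member rose (F11r) and 2 fell (Selplg and Cd44), beside 10.2% of all genes called higher and 9.93% lower. The same 3 genes passed there with libraries 1 and 2 alone, when 15.9% of genes were called.

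**Figure D3:**
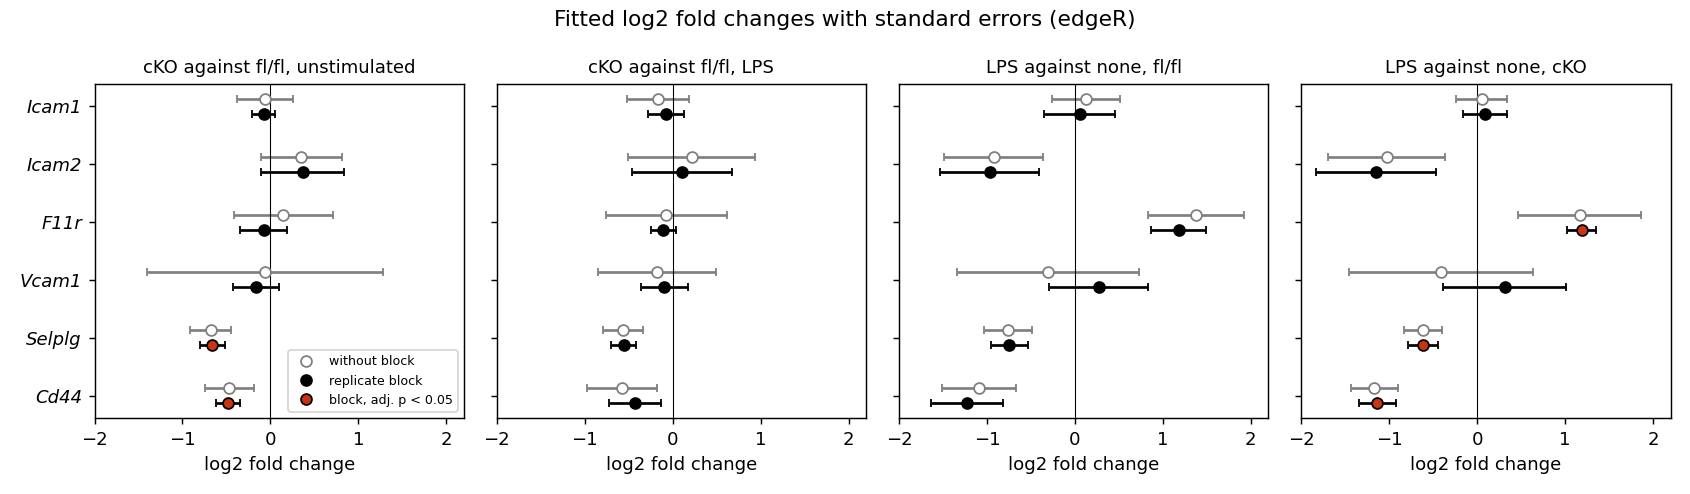
Fitted log2 fold changes (horizontal axis; bars, SE) of the 6 tested members in the 4 comparisons, without the block (open grey) and with it (filled; red where the adjusted p was under 0.05). With the block the sign turned for Vcam1 with LPS in both genotypes and for F11r between unstimulated genotypes (0.15 to -0.08). F11r with LPS in CD18fl/fl cells moved from 1.38 to 1.18. The SE of F11r with LPS in CD18CD11c cKO cells dropped from 0.70 to 0.17.

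Whether the LPS difference itself depended on the genotype was tested as an interaction over all 12 libraries. It was 0.19 (log2, SE 0.32) for Selplg, -0.02 (SE 0.50) for Cd44, -0.14 (SE 0.98) for F11r and -0.03 (SE 0.49) for Icam1. Icam2 (-0.07, SE 0.85) and Vcam1 (-0.04, SE 1.65) were similarly wide. None passed with edgeR or DESeq2. Over all 13752 genes edgeR called 0%, with 97 at an unadjusted p under 0.05, whereas DESeq2 called 1 gene without and 130 with the block. The SEs show how large a difference could have gone undetected.

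**Figure D4:**
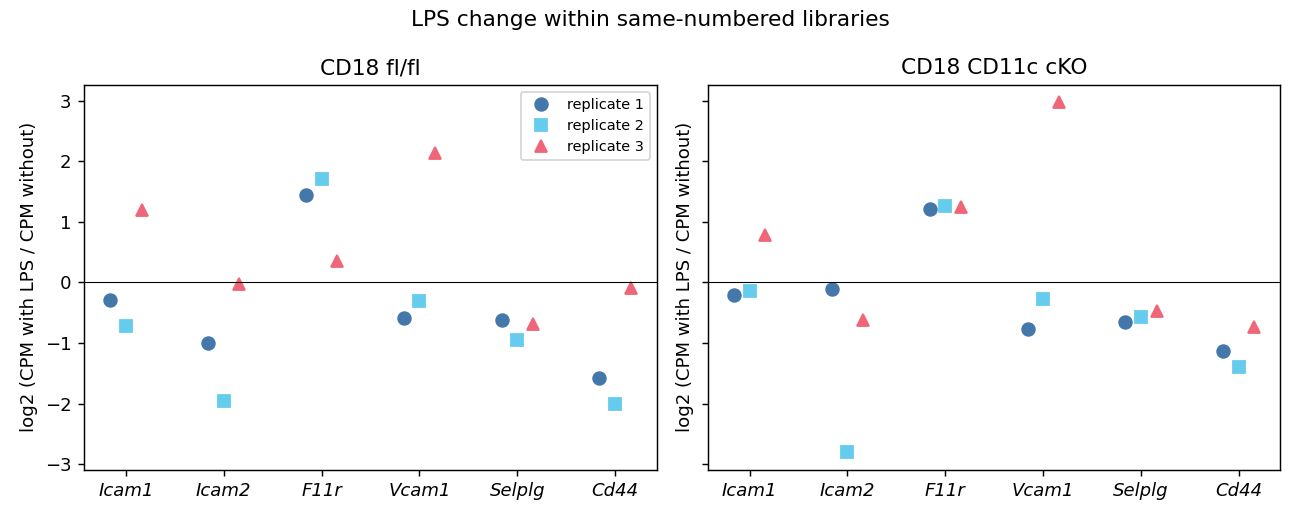
The log2 ratio of CPM with LPS to CPM without (vertical axis) within same-numbered libraries, for the 6 tested members (horizontal axis) in CD18fl/fl (left) and CD18CD11c cKO cells (right). F11r lay above and Selplg and Cd44 below 0 in all pairs, whereas for Icam1 and Vcam1 libraries 3 (red triangles) went the opposite way to libraries 1 and 2.

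Selectins bind PSGL-1 only once glycosyltransferases have built its glycans, and several of these enzymes are among the wider list of 80 adhesion genes, of which 79 were found in the tables. With LPS, the transcripts of 2 of these enzymes, Gcnt1 and Fut7, fell in both genotypes without the block. Gcnt1, which opens the core 2 branch, was at 73.4, 69.1 and 161 CPM in unstimulated and at 9.15, 6.95 and 20.6 CPM in LPS-treated CD18fl/fl cells. It fell by 3.04 (log2, SE 0.55, edgeR adjusted p = 0.0360 without the block) there and by 2.68 (SE 0.41, adjusted p = 0.0242) in CD18CD11c cKO cells. Fut7, which adds the fucose of sialyl Lewis x, was at 6.74, 7.60 and 5.56 CPM without and 1.03, 1.52 and 1.07 CPM with LPS in CD18fl/fl cells. It fell by 2.45 (SE 0.38, adjusted p = 0.0256) and in CD18CD11c cKO cells by 2.28 (SE 0.43, adjusted p = 0.0407). St3gal3, a sialyltransferase, moved the other way in CD18fl/fl cells, from 38.8, 38.5 and 30 CPM to 89.9, 90.4 and 108 CPM (1.43, SE 0.23, adjusted p = 0.0274). In CD18CD11c cKO cells it was also higher in each pair but did not pass. It went there from 32.1, 28.1 and 23.3 CPM to 48.6, 39.6 and 68.7 CPM (0.88, SE 0.30, adjusted p = 0.149). St3gal4, another sialyltransferase, did not pass without the block (-1.37, SE 0.38, adjusted p = 0.0942 in CD18fl/fl and -1.40, SE 0.72, adjusted p = 0.321 in CD18CD11c cKO cells). With the block it fell in both, by 1.44 (SE 0.27, adjusted p = 0.0245) and by 1.70 (SE 0.37, adjusted p = 0.0212). Spn, which encodes CD43, another mucin-type selectin ligand, fell by 3.07 (SE 0.39, adjusted p = 0.0162) in CD18fl/fl and by 3.44 (SE 0.45, adjusted p = 0.0182) in CD18CD11c cKO cells. T cell markers, of which 1 of 6 was above the floor in all 12 libraries, were also lower with LPS in each pair, at 23.6, 30 and 10 against 1.54, 4.13 and 3.41 CPM in CD18fl/fl and at 33.8, 16.5 and 3.85 against 4.25, 3.23 and 2.40 CPM in CD18CD11c cKO cells. Their part in the values of Gcnt1, Fut7, Spn and Itgb7 was not tested. Of the 9 tested enzymes in this group, 1 was called higher and 2 lower in CD18fl/fl cells without the block. In CD18CD11c cKO cells none was called higher and 2 were called lower.

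**Figure D5:**
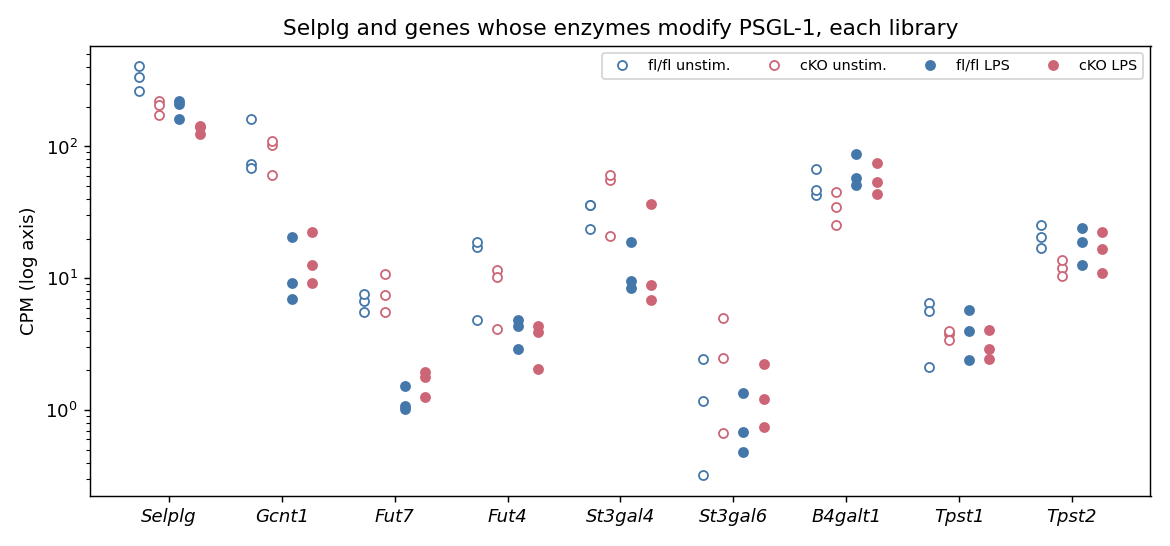
CPM on a log axis (vertical) of Selplg and 8 genes whose products modify PSGL-1 glycans or tyrosines (horizontal axis); each point is a library, open without and filled with LPS, blue for CD18fl/fl and red for CD18CD11c cKO cells. The filled points of Gcnt1 and Fut7 lie below all of their open points in both genotypes.

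Of the 4 tested integrin subunits listed for binding VCAM-1 or JAM-B, 1 passed with LPS. Itgb7, whose α4β7 integrin binds VCAM-1 and MAdCAM-1, fell by 3.71 (log2, SE 0.43, adjusted p = 0.0154) in CD18fl/fl and by 3.04 (SE 0.42, adjusted p = 0.0198) in CD18CD11c cKO cells. Of 4 tested relatives of the ICAM and JAM members, 2 rose in CD18fl/fl cells, while Icam4 (-1.56, SE 0.74, adjusted p = 0.254) and Esam (0.41, SE 0.78, adjusted p = 0.783) did not pass. Jam2, which encodes JAM-B, the partner of JAM-C, went from 0.139, 0.326 and 0.241 CPM to 3.89, 3.87 and 2.54 CPM (3.85, SE 0.58, adjusted p = 0.0222), and Icam5 from 1.17, 1.71 and 0.428 CPM to 6.87, 8.00 and 6.13 CPM (2.67, SE 0.56, adjusted p = 0.0493). With the block both also rose in CD18CD11c cKO cells, Jam2 by 2.75 (SE 0.50, adjusted p = 0.0113) and Icam5 by 2.98 (SE 0.74, adjusted p = 0.0325). Over the whole list, 4 genes rose and 5 fell among 59 tested in CD18fl/fl cells, and none rose and 4 fell among 57 in CD18CD11c cKO cells. Of all genes, 2.06% were called higher and 1.83% lower in the former fit and 2.23% and 1.76% in the latter. In CD18fl/fl cells the calls over all genes went from 496 to 0 without any 1 of the libraries numbered 1 or 2, and to 506 and 3268 without unstimulated or LPS library 3. In CD18CD11c cKO cells they went from 506 to between 0 and 26 without any 1 of libraries 1 or 2, and to 357 and 1033 without unstimulated or LPS library 3. With the block, the list genes that rose and fell were 5 and 10 in CD18fl/fl cells, beside 6.33% and 6.43% of all genes. In CD18CD11c cKO cells the list counts were 6 and 13, beside 10.2% and 9.93%. With libraries 1 and 2 alone they were 10 and 28 of 62, where 23.2% of all genes were called higher and 24.3% lower, and 5 and 12 of 59, where these shares were 7.93% and 7.99%. The median log2 difference of the list was -0.60 and -0.31, beside -0.02 and -0.01 over all tested genes.

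Between genotypes, none of the list passed edgeR's test without the block, although 6 genes without and 4 with LPS had an unadjusted p under 0.05. Over all genes this held for 2159 of 12876 and 1212 of 12441. DESeq2 called 1 and none of the list, beside 538 and 150 of all genes. With the block, 3 list genes were higher and 12 lower among 60 tested without LPS, beside 12.1% and 8.16% of all genes. With LPS, 2 were higher and 6 lower among 56, beside 6.98% and 3.16%. The medians were -0.34 and -0.29, beside -0.07 and -0.09 over all tested genes. Without LPS the list's largest differences past the threshold were those of Cemip2, a cell surface hyaluronidase (-1.80, SE 0.47), C3, the complement protein whose fragment iC3b binds MAC-1 (-1.33, SE 0.30), and Itgb2 itself (-1.29, SE 0.17). Mmp14 (-0.96, SE 0.19), a membrane protease, Glg1 (-0.91, SE 0.19), an E-selectin ligand, and Itga4 (-0.91, SE 0.14), the α chain that binds VCAM-1, followed. Their edgeR adjusted p-values were 0.0342, 0.0215, 0.00392, 0.0144, 0.0175 and 0.00622 in this order. With LPS the largest were C3 (-1.15, SE 0.17), Pvr (-0.98, SE 0.15), St3gal3 (-0.94, SE 0.17), Itgb2 (-0.91, SE 0.16) and Nectin2 (-0.81, SE 0.15). Cd47 (0.67, SE 0.14) was higher in CD18CD11c cKO cells. Pvr, a nectin-like receptor, was at 42.9, 51.1 and 52.6 CPM in LPS-treated CD18fl/fl and at 24.8, 25.1 and 25.4 CPM in CD18CD11c cKO cells. With libraries 1 and 2 alone, 1 list gene was higher and 4 were lower without LPS, and none was higher and 2 were lower with LPS. The shares of all genes were 7.91% and 2.67% without and 3.24% and 0.977% with LPS.

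The members did not share one pattern over the 12 libraries. The Pearson correlation of log2 CPM, which here also reflects shared groups and replicate numbers, was highest for F11r with Vcam1 (0.75) and for Selplg with Cd44 (0.74), and lowest for Icam2 with F11r (-0.62). Among 7263 or 7264 genes compared per member, those most like F11r were Ppp4r2, Zscan21 and Stx11 (0.98 each), and those most like Vcam1 were Apol7c (0.98), Prnp (0.97) and Epsti1 (0.96). Selplg was followed most closely by Gltp (0.97), Pus1 (0.97) and Nop53 (0.94), and Cd44 by Dpp8 (0.98), Arhgef3 (0.96) and Fut11 (0.95). For Icam1 the nearest were Fnbp1l (0.86), Fnbp1 (0.85) and Lrrk1 (0.85), and for Icam2 Rnase4 (0.89), St6galnac2_1 (0.86) and Ralb (0.86). When deviations from the group means were used instead, the Selplg neighbours fell to ranks 418, 1137 and 412, whereas those of Cd44 stood at ranks 2, 18 and 20.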

How the data were processed

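Poly(A) RNA of MHCII+ BMDCs was sequenced as single reads, in 12 libraries. The authors aligned and counted reads with CLC Genomics Workbench, and the deposited tables give total gene reads as counts per gene (introns included) beside exon-based RPKM and TPM. Coordinates are those of GRCm39, the build in the study's methods; the labels name GRCm38. The library kit was not stated to keep strand, but genes overlapping a member had 0 to 3 reads. Groups follow the labels, which do not say that replicates came from separate mice, so p-values measure the spread between these libraries. Counts were tested with edgeR 4.0.16 (quasi-likelihood, TMM, filterByExpr with a minimum count of 10, Benjamini-Hochberg over all genes) in R 4.3.3, per comparison on its 6 libraries, and for the interaction on all 12. Alternatives were the replicate block, DESeq2 1.42.0, RLE or library size scaling, other filters, unique or exon reads, a length offset and left-out libraries. The pairing by replicate number comes from the deviations of the libraries, not from the labels. Fits were tested on simulated data. Floors cover counting error only, since PCR copies were not marked by molecular identifiers.

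The text names all 7 members, Itgb2, up to 6 genes of the adhesion list with the largest change past the threshold per comparison (with the block where none passed without it) and the 3 genes most correlated with each member at a mean of at least 10 CPM. St3gal3 and St3gal4 with LPS and the blocked values of Jam2 and Icam5 were added after their values were seen. The same holds for the levels of the single markers Itgax, Irf4, Batf3 and Dcn. The members and lists were chosen with earlier results of these data known. The fits on exon reads, on libraries 1 and 2 alone, on 12 libraries with the block and on library size with the block were chosen after seeing the data.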

Additional observations from a re-analysis of the deposited data

Results flagged for a closer look

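In CD18fl/fl LPS replicate 3, intron reads made up 37.3% of the total gene reads of Cd44, a column that the comparisons of counts do not separate. The other LPS libraries had 6.84% to 13.6%. In that library 60 of 4343 genes with over 1000 reads had an intron share as high as that of Cd44 or higher, and the median share was 2.07%, against 0.488% to 1.13% in the other libraries. The part of this in the Cd44 values is given by the fit on exon reads; its origin was not tested.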

How the results depend on the processing

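Of 6 members tested (5 or 7 under other filters), 0 passed without the block in each pairwise comparison, and alternatives moved this count. The calls among all genes tested in the same fit are given in parentheses. For the genotype without LPS it was 2 with the block (2606 of 12876), with DESeq2 and the block (3036 of 11506) and with exon reads and the block (2740 of 11939). It was 1 with 12 libraries (1115 of 13752) and with the length offset (1499 of 12876), each with the block, and with libraries 1 and 2 alone (1383 of 13068). With library size and the block it was 3 (4583 of 12876). For the genotype with LPS it was 1 with DESeq2 (1869 of 10924), exon reads (1413 of 11511) or library size (2642 of 12441), each with the block. For LPS in CD18fl/fl it was 3 with DESeq2 (3131 of 13789) or 12 libraries (3365 of 13752), each with the block. It was 2 with exon reads (1589 of 11818) and 1 with library size (1621 of 12744), each with the block, and 4 with libraries 1 and 2 alone (6140 of 12924). For LPS in CD18CD11c cKO it was 3 with the block (2560 of 12687) and with libraries 1 and 2 alone (2049 of 12872). It was also 3 with DESeq2 (3377 of 13978), 12 libraries (3016 of 13752), exon reads (2481 of 11744) or library size (2748 of 12687), each with the block. With the length offset and the block it was 2 (2578 of 12687). It was 1 (Cd44) with DESeq2 (1532 of 14252), library size (486 of 12687), no filter (805 of 19186) or a mean of at least 5 CPM (559 of 8636). Leave-one-out counts ranged from 0 to 2 for LPS in CD18fl/fl (2 without CD18fl/fl LPS replicate 3, beside 3268 of 13206 genes). They ranged from 0 to 1 for LPS in CD18CD11c cKO (1 without CD18CD11c cKO unstimulated replicate 3, beside 357 of 13256 genes). Icam1 passed only between unstimulated genotypes with library size and the block (-0.47, where the median gene moved to -0.46) and with LPS in CD18fl/fl with libraries 1 and 2 alone. No member passed for the interaction under any fit run, and the order of levels by TPM matched that by RPKM in 4 of 4 groups. Selplg and Cd44 with LPS, F11r with LPS and Selplg between genotypes kept their direction in all fits run. Library size scaling moved the median of all genes to -0.44, -0.37, -0.32 and -0.23 in the pairwise comparisons, in the order used above.

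With library size scaling alone the log2 difference turned to -0.014 for Icam2 (genotype without LPS), -0.27 for F11r (genotype without LPS), -0.027 for Icam2 (genotype with LPS), -0.13 for Icam1 (LPS in CD18fl/fl), -0.13 for Icam1 (LPS in CD18CD11c cKO) and 0.084 for Vcam1 (the interaction). With library size scaling and the block the log2 difference turned to -0.028 for Icam2 (genotype without LPS), -0.47 for F11r (genotype without LPS), -0.15 for Icam2 (genotype with LPS), -0.27 for Icam1 (LPS in CD18fl/fl), -0.12 for Icam1 (LPS in CD18CD11c cKO), 0.10 for Vcam1 (LPS in CD18CD11c cKO), 0.036 for Icam1 (the interaction), 0.17 for F11r (the interaction), 0.21 for Vcam1 (the interaction) and 0.019 for Cd44 (the interaction). With the block alone the log2 difference turned to -0.075 for F11r (genotype without LPS), 0.27 for Vcam1 (LPS in CD18fl/fl), 0.315 for Vcam1 (LPS in CD18CD11c cKO), 0.13 for F11r (the interaction) and 0.12 for Vcam1 (the interaction). With DESeq2 and the block the log2 difference turned to -0.077 for F11r (genotype without LPS), 0.34 for Vcam1 (LPS in CD18fl/fl), 0.40 for Vcam1 (LPS in CD18CD11c cKO), 0.068 for F11r (the interaction) and 0.093 for Vcam1 (the interaction). With the length offset and the block the log2 difference turned to -0.14 for F11r (genotype without LPS), 0.083 for Vcam1 (genotype without LPS), -0.13 for Icam2 (genotype with LPS), 0.076 for Vcam1 (genotype with LPS), 0.47 for Vcam1 (LPS in CD18fl/fl), 0.42 for Vcam1 (LPS in CD18CD11c cKO) and 0.10 for F11r (the interaction). With 12 libraries and the block the log2 difference turned to -0.20 for F11r (genotype without LPS), 0.26 for Vcam1 (LPS in CD18fl/fl) and 0.38 for Vcam1 (LPS in CD18CD11c cKO). With exon reads and the block the log2 difference turned to -0.069 for F11r (genotype without LPS), 0.29 for Vcam1 (LPS in CD18fl/fl), 0.32 for Vcam1 (LPS in CD18CD11c cKO), 0.093 for F11r (the interaction), 0.048 for Vcam1 (the interaction) and 0.19 for Cd44 (the interaction). With libraries 1 and 2 alone the log2 difference turned to 0.20 for Icam1 (genotype with LPS), -0.042 for Icam2 (genotype with LPS), 0.0056 for Cd44 (genotype with LPS), -0.49 for Icam1 (LPS in CD18fl/fl), -0.28 for Icam1 (LPS in CD18CD11c cKO), 0.26 for Icam1 (the interaction) and 0.44 for Cd44 (the interaction). With a minimum mean of 5 CPM the log2 difference turned to -0.0087 for Icam1 (LPS in CD18CD11c cKO). With exon reads alone the log2 difference turned to 0.20 for Cd44 (the interaction). Leaving out 1 library in turn, the log2 differences that changed sign ranged for Icam1 from -0.27 to 0.17 for genotype without LPS, -0.37 to 0.24 for genotype with LPS, -0.30 to 0.37 for LPS in CD18fl/fl, -0.17 to 0.23 for LPS in CD18CD11c cKO, -0.26 to 0.29 for the interaction. Those of Icam2 ranged from -0.23 to 0.61 for genotype with LPS, -0.49 to 0.34 for the interaction. Those of F11r ranged from -0.19 to 0.60 for genotype without LPS, -0.52 to 0.35 for genotype with LPS, -0.69 to 0.29 for the interaction. Those of Vcam1 ranged from -0.62 to 0.52 for genotype without LPS, -0.63 to 0.25 for genotype with LPS, -0.86 to 0.13 for LPS in CD18fl/fl, -0.98 to 0.15 for LPS in CD18CD11c cKO, -0.61 to 0.54 for the interaction. Those of Selplg ranged from -0.073 to 0.27 for the interaction. Those of Cd44 ranged from -0.31 to 0.39 for the interaction.

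Over all genes, 0, 0, 496 and 506 were called without and 2606, 1262, 1627 and 2560 with the block; with DESeq2 538, 150, 1794 and 1532, and with libraries 1 and 2 alone 1383, 523, 6140 and 2049. Leaving out 1 library gave 0 to 3268 with LPS in CD18fl/fl (3268 without its LPS replicate 3) and 0 to 1033 in CD18CD11c cKO cells (1033 without its LPS replicate 3). Without any 1 of libraries 1 or 2 these counts were 0 and at most 26. Depth limits Jam3 (at most 23 reads) and Icam2 (13 to 132 reads). The SE of the Vcam1 interaction was 1.65 without the block, 0.86 with it and 0.38 with libraries 1 and 2 alone. The cause of these shifts was not tested.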
